A study of Mus musculus with 12 samples.

Results

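In mouse peritoneal macrophages, 8 genes of extracellular purine signalling were examined, out of 16920 genes in the tables. These members were chosen by gene symbol, with earlier results of these data known. They were 5 receptors of extracellular nucleotides (P2rx4, P2rx7, P2ry2, P2ry6 and P2ry14), both A2 receptors of adenosine (Adora2a and Adora2b) and the ectonucleotidase Entpd1 (CD39), and all 8 passed the filter on low counts. To examine how loss of the m6A reader Ythdf1 bears on the macrophage response to lipopolysaccharide (LPS), the study sequenced 12 libraries, 3 in each of 4 groups. WT and Ythdf1 knockout cells each received PBS or LPS at 1 µg/mL and were harvested after 6 h. The mice were C57BL/6 of 6 to 10 weeks, the Ythdf1-/- line was made with CRISPR/Cas9 in the whole animal, and all cells had been drawn into the peritoneum by an injected irritant and cultured overnight. The series record names starch broth as that irritant, whereas the methods of the paper name thioglycollate. The methods call the 3 libraries of a group independent, but no label ties a library to an animal, so the p-values measure the spread between these libraries.

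ATP leaves stressed or dying cells and acts on macrophages through P2X receptors, which are ATP-gated cation channels, and P2Y receptors, which couple to G proteins. P2rx7 opens the way to NLRP3 inflammasome activation, P2rx4 is a more ATP-sensitive channel, P2ry2 senses ATP and UTP and guides phagocytes, P2ry6 senses UDP and promotes phagocytosis, and P2ry14 senses UDP-glucose. Entpd1 on the cell surface strips phosphates from ATP and ADP, and its product AMP is turned into adenosine by Nt5e (CD73). Adenosine raises cAMP through the Gs-coupled receptors Adora2a and Adora2b, which is known to restrain inflammatory cytokine production in macrophages.

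Total counts lay between 21546274 and 22017005 per library. After TMM scaling (a trimmed-mean scaling of library composition), effective sizes were 27652561 to 28570485 in PBS libraries but 16080391 to 17734383 in LPS libraries, so that equal raw counts correspond to higher scaled values with LPS. Values are given in CPM, the count relative to the scaled library size, in which 3 counts, the floor used here, equal 0.105 to 0.187 CPM. Floors cover counting error only. Replicate 1 of WT LPS stood apart, with a mean chi-square per gene of 30.7 and 23.9 against replicates 2 and 3, which differed by 2.97, and 2.69 to 15.6 for pairs in the other groups. The summed level of 10 macrophage markers was 17448 to 20026 CPM over all libraries, most of it Lyz2 (group means of 11151 to 12787 CPM), with Adgre1 and Cd68 also high in each group and Cd163 at 3 counts or fewer in every LPS library. Each of the 5 mast cell markers and both eosinophil markers in the files stayed at 3 counts or fewer in every library. Ythdf1 mRNA averaged 43.5 ± 1.54 CPM (SD, n = 3) in WT PBS and 57.2 ± 1.53 in the PBS libraries labelled knockout, and 202 ± 9.40 against 198 ± 6.95 CPM with LPS. The transcript was therefore not lower in the libraries labelled knockout, which are called KO-labelled below, and which part of the gene was deleted is not stated in the sources used here. All directions between genotypes rest on those labels.

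With LPS and TMM scaling, all 8 genes passed the test in both genotypes. The largest changes were those of Adora2a and P2ry14 in WT and of Adora2b and Adora2a in KO-labelled cells. In WT cells 5 of the 8 rose and 3 fell, against a background of 36.5% of the 12065 genes tested that rose and 40.2% that fell. In KO-labelled cells 5 rose and 3 fell as well, where 38.8% of all genes tested rose and 41% fell. These counts hold for TMM and RLE scaling. By upper quartiles 4 rose and 3 fell in WT and 4 rose and 4 fell in KO-labelled cells, and by library totals 3 rose and 4 fell in WT and 4 rose and 4 fell in KO-labelled cells. Most genes were called in either genotype, so the count of members says little and their sizes are given below. The median log2 fold change of the members was 0.49 in WT and 0.82 in KO-labelled cells, against -0.05 and -0.04 over all genes tested. The comparisons of LPS with PBS use different libraries in the 2 genotypes.

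**Figure D1:**
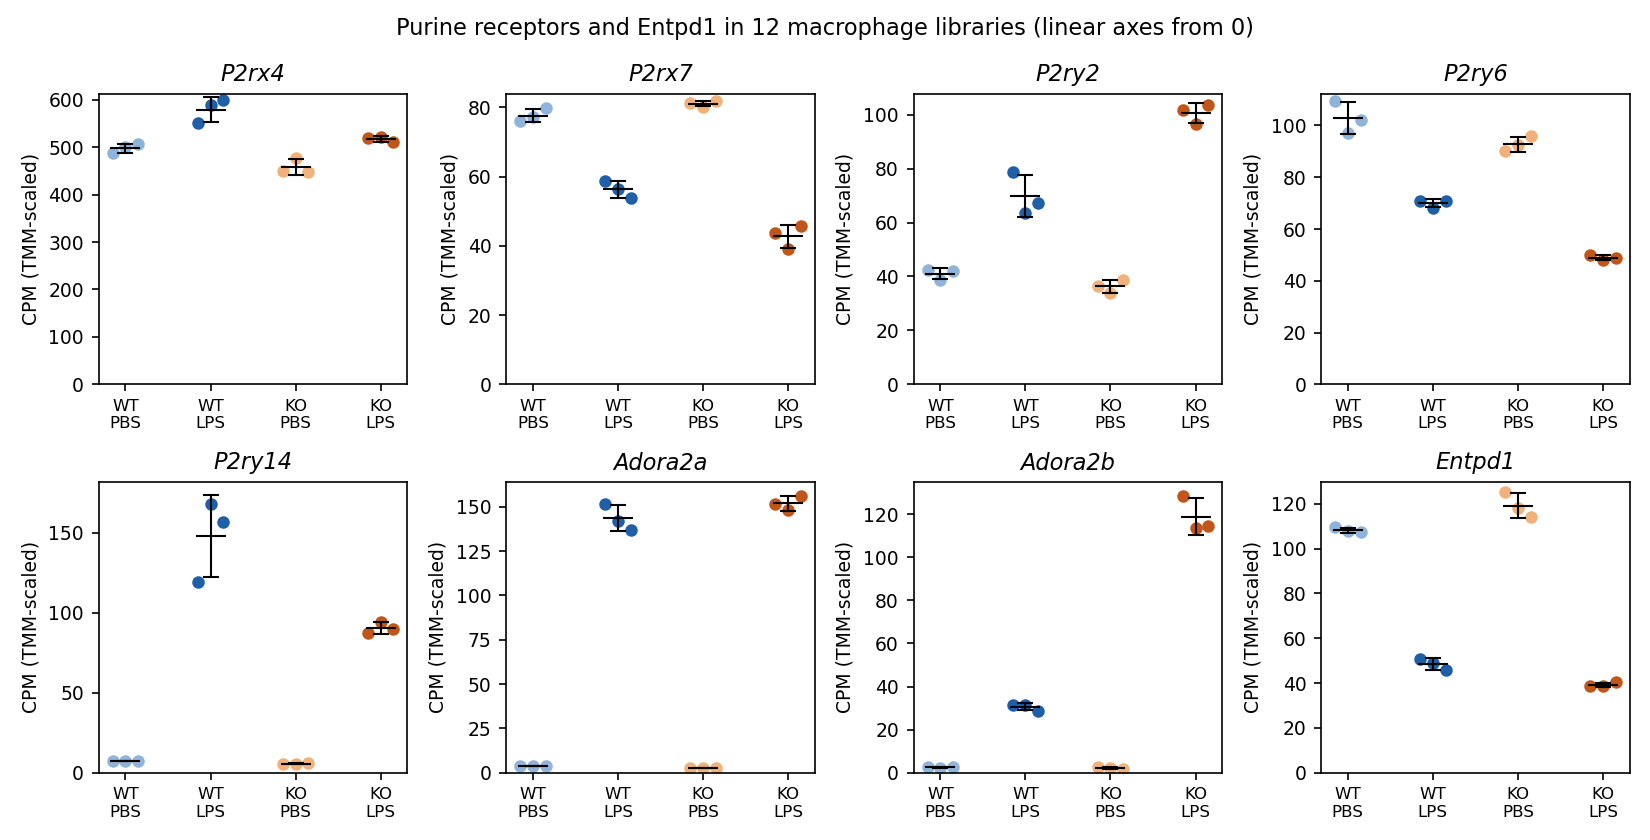
TMM-scaled CPM (linear axis from 0) of the 8 genes in each of the 12 libraries, by group. Points are libraries, the dash is the group mean and the bar its SD. P2ry14, Adora2a and Adora2b lie near the floor of the panel with PBS and high with LPS, P2rx7, P2ry6 and Entpd1 are lower with LPS, and Adora2b with LPS is far higher in the KO-labelled libraries.

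Adora2a (chr10:75316877-75334792, plus strand, GRCm38.p6), the high-affinity A2 receptor, was at 3.73, 3.86 and 3.83 CPM in WT PBS and at 152, 142 and 137 CPM in WT LPS. In KO-labelled cells it was at 2.73, 2.81 and 2.76 CPM with PBS and at 151, 148 and 156 CPM with LPS. Every LPS library lay far above every PBS library, and the LPS libraries of both genotypes overlapped. The rise was 37.7-fold in WT (log2 fold change 5.24 ± 0.07 SE, edgeR adjusted p = 1.27e-18) and 54.8-fold in KO-labelled cells (5.78 ± 0.08, adjusted p = 4.31e-19). The raw counts behind the PBS values were 78 to 108 reads.

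Adora2b (chr11:62248984-62266452, plus strand), the low-affinity A2 receptor, started at a similarly low level. It was at 2.86, 2.22 and 2.61 CPM in WT PBS and at 31.5, 31.5 and 28.8 CPM in WT LPS. The KO-labelled libraries had 2.48, 2.32 and 1.56 CPM with PBS and 128, 113 and 114 CPM with LPS. With PBS the genotypes overlapped, while with LPS every KO-labelled library lay far above every WT library. LPS raised the gene 11.9-fold in WT (3.58 ± 0.12, adjusted p = 3.21e-14) and 55.9-fold in KO-labelled cells (5.80 ± 0.12, adjusted p = 3.86e-17). The PBS values rest on 44 to 79 reads.

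Entpd1 (chr19:40612366-40741602, plus strand), the ecto-enzyme that removes ATP and ADP, moved the opposite way. Its level in WT cells was 110, 108 and 107 CPM with PBS and 51.0, 48.8 and 45.8 CPM with LPS. KO-labelled cells held 125, 118 and 114 CPM with PBS and 38.7, 38.9 and 40.3 CPM with LPS. No LPS library reached a PBS library, and with LPS every KO-labelled library lay below every WT library. The gene was 2.23-fold lower with LPS in WT (-1.16 ± 0.06, adjusted p = 1.21e-11) and 3.04-fold lower in KO-labelled cells (-1.60 ± 0.06, adjusted p = 1.59e-13).

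Among the ATP-gated channels, P2rx7 (chr5:122643927-122692336, plus strand) was lower with LPS. WT libraries had 76.0, 77.1 and 79.7 CPM with PBS and 58.8, 56.4 and 53.9 CPM with LPS, and KO-labelled libraries had 81.2, 80.2 and 81.8 CPM with PBS and 43.6, 39.1 and 45.6 CPM with LPS. The 4 groups did not overlap between treatments, and the KO-labelled LPS libraries were the lowest. The difference was 1.38-fold in WT (-0.46 ± 0.06, adjusted p = 3.84e-06) and 1.89-fold in KO-labelled cells (-0.92 ± 0.06, adjusted p = 6.27e-10).

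P2rx4 (chr5:122707518-122729739, plus strand), which lies 15181 bases from P2rx7, was the most abundant member in each group. Scaled values were 488, 500 and 506 CPM in WT PBS and 550.5, 588 and 600 CPM in WT LPS. In KO-labelled libraries they were 450, 477 and 449 CPM with PBS and 520, 523 and 511 CPM with LPS. Raw counts went the other way, from 13488 to 14157 in WT PBS and from 9518 to 10637 in WT LPS. By TMM scaling P2rx4 was 1.16-fold higher with LPS in WT (0.22 ± 0.05, adjusted p = 0.00122) and 1.13-fold higher in KO-labelled cells (0.17 ± 0.05, adjusted p = 0.00613), and by library totals alone it was lower in both (-0.44 and -0.63). Upper-quartile scaling gave -0.09 in WT, which did not pass the test (adjusted p = 0.164), and -0.18 in KO-labelled cells, so its direction depends on the scaling. Relative to the median of all genes tested, P2rx4 was by TMM 0.27 higher on the log2 scale in WT and 0.22 higher in KO-labelled cells. A change of scaling shifts nearly all genes alike. This difference from the median therefore hardly moves with the scaling and does not settle the direction. P2rx4 is the member whose counts carried decimals, in all 12 libraries, and it overlaps Camkk2 (chr5:122718380-122779522, minus strand), a kinase gene on the other strand. Camkk2 went from 42.5 ± 3.08 to 123 ± 16.6 CPM with LPS in WT and from 46.4 ± 2.05 to 146 ± 13.1 CPM in KO-labelled cells. Whether counting used the strand is not stated, and the part of the overlap in the P2rx4 values was not tested.

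**Figure D2:**
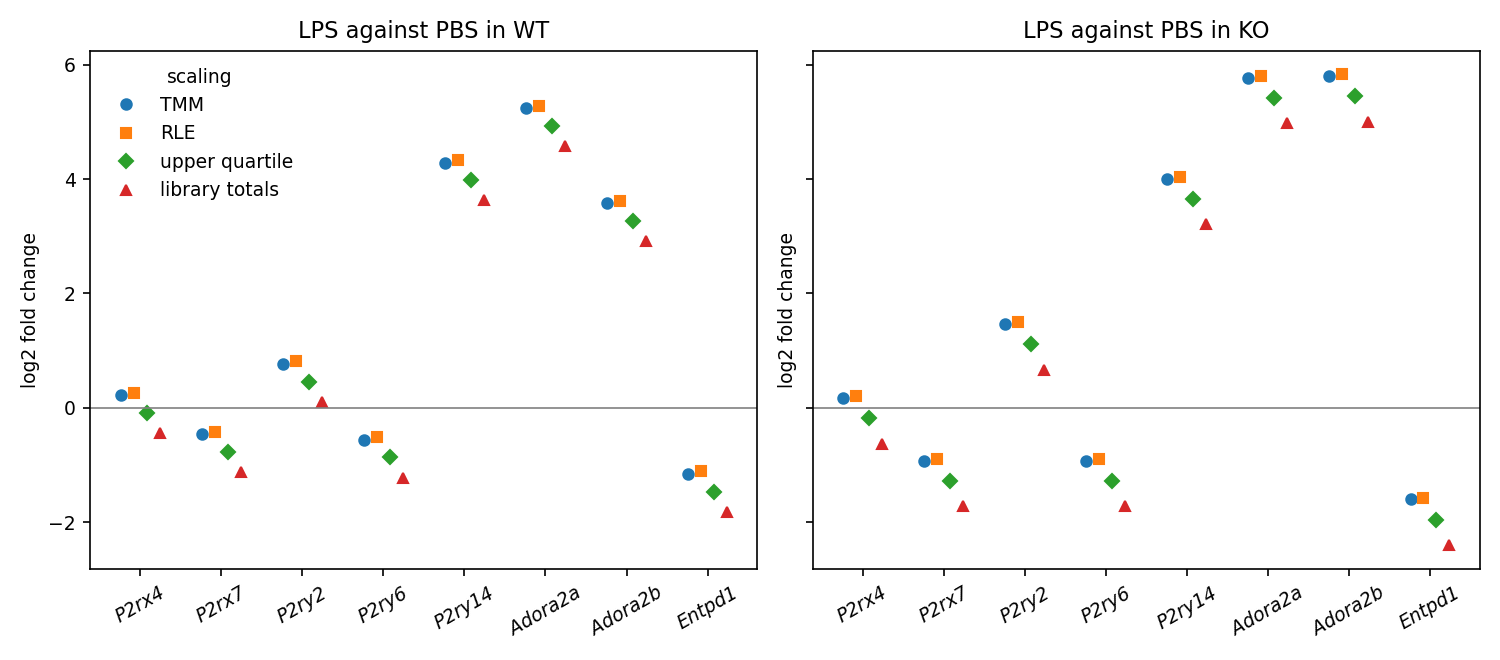
Log2 fold change of each member for LPS against PBS in WT (left) and KO-labelled cells (right) under 4 library scalings, with 0 marked. Library totals place every member lower than TMM does, P2rx4 crosses 0, and the other 7 keep their sign.

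The scalings differ because the LPS libraries differ in composition. Over all genes tested the median log2 fold change was -0.05 in WT and -0.04 in KO-labelled cells by TMM, -0.36 and -0.40 by upper quartiles, and -0.71 and -0.84 by library totals. Apart from P2rx4, the direction of the LPS response of each member was the same under TMM, RLE, upper-quartile and library-total scaling. Under library totals P2ry2 in WT did not pass the test (0.10, adjusted p = 0.196).

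The nucleotide-sensing P2Y receptors split. P2ry2 (chr7:100996568-101012053, minus strand) was at 42.3, 38.8 and 42.1 CPM in WT PBS and at 78.7, 63.7 and 67.3 CPM in WT LPS. In KO-labelled cells it was at 36.5, 33.9 and 38.6 CPM with PBS and at 102, 96.6 and 104 CPM with LPS. All KO-labelled LPS libraries were above all WT LPS libraries, of which replicate 1 was the highest. The rise was 1.7-fold in WT (0.77 ± 0.08, adjusted p = 1.23e-07) and 2.77-fold in KO-labelled cells (1.47 ± 0.08, adjusted p = 1.83e-11). Without WT LPS replicate 1 the WT value was 0.67.

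P2ry6 (chr7:100937630-100975498, minus strand), which lies 21069 bases from P2ry2, was lower with LPS although its neighbour was higher. It measured 109, 97.2 and 102 CPM in WT PBS and 70.9, 68.2 and 70.7 CPM in WT LPS, and 90.2, 92.3 and 95.8 CPM against 50.0, 48.0 and 48.8 CPM in KO-labelled cells. LPS and PBS libraries did not overlap in either genotype. The gene was 1.47-fold lower in WT (-0.56 ± 0.06, adjusted p = 1.58e-07) and 1.90-fold lower in KO-labelled cells (-0.92 ± 0.06, adjusted p = 2.37e-10).

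P2ry14 (chr3:59114623-59153492, minus strand), the UDP-glucose receptor, had the largest response of the 5 nucleotide receptors among the members. WT PBS libraries had 7.49, 7.66 and 7.54 CPM, and WT LPS libraries had 119, 168 and 156 CPM. The KO-labelled libraries had 5.25, 5.79 and 5.81 CPM with PBS and 87.1, 94.5 and 89.7 CPM with LPS. Replicate 1 was the lowest of the WT LPS libraries and still lay above all KO-labelled LPS libraries. The rise was 19.5-fold in WT (4.29 ± 0.11, adjusted p = 1.72e-15) and 16.1-fold in KO-labelled cells (4.01 ± 0.12, adjusted p = 5.14e-15). Without WT LPS replicate 1 the WT value was 4.42, and the other 7 members also kept their calls and directions in WT, from -1.19 for Entpd1 to 5.19 for Adora2a.

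The promoters of 3 members are shown because these genes had the largest rise among nucleotide receptors, the rise that differed most between genotypes and the deepest fall. RefSeq windows of 300 bases around annotated starts (GRCm38.p6, mostly upstream) were at hand for 6 of the 8 members (12 windows) and were searched on both strands for a κB motif (GGG and CC with any 5 bases between), the AP-1 motif TGANTCA, the cAMP response element TGACGTCA and its short form TGACG, an interferon-stimulated response element (GAAA repeated with any 2 bases between) and the GC box GGGCGG. Capitals mark κB, AP-1 and short-form letters, and each sequence reads 5′ to 3′ along its gene.
P2ry14, the last of 4 annotated starts, chr3:59130713-59131012, minus strand: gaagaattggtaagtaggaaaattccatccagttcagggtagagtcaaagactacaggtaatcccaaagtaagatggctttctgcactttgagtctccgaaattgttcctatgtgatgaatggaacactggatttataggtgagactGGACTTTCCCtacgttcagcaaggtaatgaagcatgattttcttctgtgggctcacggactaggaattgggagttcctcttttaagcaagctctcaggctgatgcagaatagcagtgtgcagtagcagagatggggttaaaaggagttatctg
Adora2b, chr11:62248734-62249033, plus strand: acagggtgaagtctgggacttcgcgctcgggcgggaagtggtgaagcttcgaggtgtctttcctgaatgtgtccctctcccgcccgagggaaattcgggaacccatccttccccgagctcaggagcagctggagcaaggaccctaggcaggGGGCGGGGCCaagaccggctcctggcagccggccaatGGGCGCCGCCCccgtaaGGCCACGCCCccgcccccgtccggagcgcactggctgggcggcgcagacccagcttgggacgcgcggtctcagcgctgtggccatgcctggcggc
Entpd1, the first of 2 annotated starts, chr19:40612116-40612415, plus strand: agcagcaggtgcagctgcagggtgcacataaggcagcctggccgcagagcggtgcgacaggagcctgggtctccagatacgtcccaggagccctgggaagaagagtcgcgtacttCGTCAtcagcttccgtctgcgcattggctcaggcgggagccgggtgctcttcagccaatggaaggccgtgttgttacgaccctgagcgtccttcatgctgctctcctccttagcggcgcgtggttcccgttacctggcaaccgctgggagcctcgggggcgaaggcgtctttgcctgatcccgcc

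The κB letters stood 103 bases before this P2ry14 start, as GGACTTTCCC, and this window is shown because it is the one of 4 that held them. AP-1 letters stood in the P2ry14 windows 1 and 2. The Adora2b window held 4 κB matches within 99 bases of the start. Those at 62 and 61 bases overlap each other, and 3 of the 4 overlap a GC box. The Entpd1 window had no κB match and the short form 135 bases before the start. In all, κB letters occurred in windows of 5 members (6 windows), AP-1 letters in 2 members (3 windows) and the short form in 2 members, P2rx4 and Entpd1 (3 windows). The full cAMP element and the interferon element matched in none of the 12 windows. Of 32851 promoter windows of the same length, 50.8% held κB letters, 7.81% AP-1 letters, 20.8% the short form, 1.79% the full cAMP element, 3.44% the interferon element and 35.7% a GC box. A match is a description of the sequence.

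**Figure D3:**
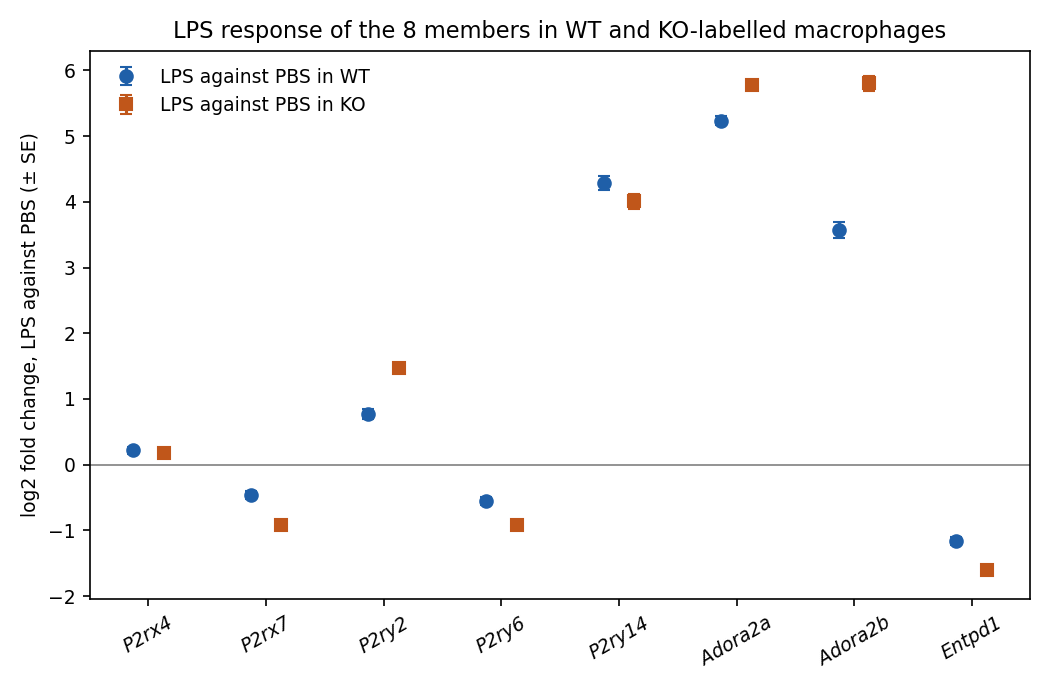
Log2 fold change for LPS against PBS with its SE in WT (circles) and KO-labelled cells (squares). The gap between the genotypes is widest for Adora2b (3.58 in WT, 5.80 in KO-labelled cells) and small for P2rx4 (0.22 and 0.17).

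To ask whether the LPS response differed between genotypes, the interaction term was tested directly. It passed for 6 of the 8 members, 3 with a more positive and 3 with a more negative response in KO-labelled cells, where 9.78% of all genes tested had a more positive and 8.24% a more negative one. The largest was Adora2b at 2.23 ± 0.19 on the log2 scale (adjusted p = 1.07e-06), a 4.68-fold larger rise. P2ry2 followed with 0.70 ± 0.11 (adjusted p = 0.000369) and Adora2a with 0.54 ± 0.11 (adjusted p = 0.00286). For Adora2a, KO-labelled cells were lower under PBS (-0.46), while with LPS the genotypes overlapped (0.08, adjusted p = 0.25). On the other side, P2rx7 had -0.46 ± 0.09 (adjusted p = 0.00198), Entpd1 -0.44 ± 0.08 (adjusted p = 0.00166) and P2ry6 -0.37 ± 0.08 (adjusted p = 0.00599). Thus each of the 3 genes that were lower with LPS was reduced further in KO-labelled cells. P2rx4 (-0.04 ± 0.07, adjusted p = 0.753) and P2ry14 (-0.28 ± 0.16, adjusted p = 0.257) did not pass. P2ry14 passed without WT LPS replicate 1 (-0.41, adjusted p = 0.00607), and the other 7 calls were the same without it.

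Under PBS the genotypes differed little. Of the 8 members 2 were lower in KO-labelled cells and none was higher, against 13% and 12.3% of all genes tested, so the count in the main fit is near the background. Adora2a was 1.37-fold lower (-0.46 ± 0.09, adjusted p = 0.00228) and P2ry14 1.35-fold lower (-0.43 ± 0.13, adjusted p = 0.0241). Leaving out any 1 of the 6 PBS libraries ended the P2ry14 call (adjusted p = 0.0569 to 0.125), as did library totals (adjusted p = 0.0567). For Adora2b the groups overlapped (-0.27 ± 0.16, adjusted p = 0.251). The others did not pass, with Entpd1 at 0.14 ± 0.06, P2rx7 at 0.06 ± 0.06, P2rx4 at -0.12 ± 0.05, P2ry6 at -0.15 ± 0.06 and P2ry2 at -0.18 ± 0.08. Without WT LPS replicate 1 P2rx4, P2ry2, P2ry6 and Entpd1 passed as well (adjusted p = 0.0282 to 0.039), and Entpd1 passed without KO PBS replicate 3 (adjusted p = 0.0436), under library totals (0.0161) and by DESeq2 (0.0184). In a fit to the PBS libraries alone 6 members were called, while all genes called went from 3053 to 4624. Under upper-quartile scaling 4 members were called.

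With LPS, 7 of the 8 members differed between genotypes, 2 higher and 5 lower in KO-labelled cells, against 22.1% and 19.3% of all genes tested. Adora2b was 3.88-fold higher (1.96 ± 0.09, adjusted p = 1.91e-10) and P2ry2 1.44-fold higher (0.53 ± 0.08, adjusted p = 5.59e-05). P2ry14 was 1.64-fold lower (-0.71 ± 0.09, adjusted p = 2.17e-05), P2ry6 1.43-fold lower (-0.51 ± 0.06, adjusted p = 6.44e-06), P2rx7 1.32-fold lower (-0.40 ± 0.07, adjusted p = 0.000148) and Entpd1 1.24-fold lower (-0.31 ± 0.06, adjusted p = 0.000939). P2rx4 was 1.12-fold lower (-0.16 ± 0.05, adjusted p = 0.0205), a call that ended without WT LPS replicate 2 or 3 or KO LPS replicate 1 or 3 (adjusted p = 0.0533 to 0.0856) and in a fit to the LPS libraries alone (-0.18, adjusted p = 0.0716). For Adora2a the groups overlapped and the difference of 0.08 ± 0.05 did not pass (adjusted p = 0.25).

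Some markers of macrophages and of other cells also differed between the labels. Of the 10 macrophage markers, 1 was higher (Cd14, lost under upper-quartile scaling at adjusted p = 0.0705) and 2 were lower in KO-labelled cells under PBS, and 1 was higher and 4 were lower with LPS. Of all genes tested, 12.3% were higher and 13% lower under PBS, and 22.1% and 19.3% with LPS. The macrophage count under PBS is thus near the background. Mrc1, the mannose receptor, was at 273 ± 8.93 CPM in WT PBS against 119 ± 8.69 in KO PBS (adjusted p = 5.57e-08), and at 210 ± 17.1 against 97.9 ± 11.8 with LPS (adjusted p = 8.58e-08). Mertk, a receptor for dying cells, was at 233 ± 12 CPM in WT LPS against 98.3 ± 9.76 in KO LPS (adjusted p = 1.95e-09). Csf1r fell with LPS in both genotypes and with LPS was lower in KO-labelled cells (-0.53, adjusted p = 0.00116). All 5 fibroblast markers were lower in KO-labelled cells under PBS and with LPS, with summed levels of 75.1 to 88.6 CPM in WT PBS, 32.9 to 46.2 in KO PBS, 118 to 132 in WT LPS and 57.0 to 69.5 in KO LPS. The 5 neutrophil markers in the files summed to 104 to 108 CPM in WT PBS, 153 to 156 in KO PBS, 89.8 to 92.6 in WT LPS and 116 to 126 in KO LPS. Most of it was Mmp8 (group means of 78.2 to 147 CPM). Mmp8 was higher in KO-labelled cells under PBS (0.56, adjusted p = 1.52e-06) and with LPS (0.41, adjusted p = 2.38e-05). Under PBS Cxcr2 was higher as well (0.68, adjusted p = 0.00273), while S100a8 did not pass (adjusted p = 0.462). These Mmp8 and Cxcr2 calls held under RLE, upper-quartile and library-total scaling. With LPS S100a8 and Cxcr2 were also higher in KO-labelled cells (adjusted p = 0.0489, with overlapping groups, and 0.0231). Both LPS calls were lost under upper-quartile scaling (0.0956 and 0.0634) and library totals (0.109 and 0.0818). The other 2 of the 5 stayed at 3 counts or fewer in every library. The 5 mesothelial markers summed to 6.37 to 6.97 CPM in WT PBS, 3.26 to 4.28 in KO PBS, 6.54 to 7.29 in WT LPS and 4.65 to 5.66 in KO LPS, and Wt1 among them was lower in KO-labelled cells under PBS (-1.61, adjusted p = 0.000142) and with LPS (-1.46, adjusted p = 0.00072). B cell markers summed to at most 1.92 CPM, and T cell markers went from at most 2.97 CPM with PBS to 10.4 to 14.1 in WT LPS and 5.03 to 5.57 in KO LPS, mostly through Lck (log2 fold change of KO against WT with LPS -1.37, adjusted p = 1.01e-05), while Cd3d, Cd3e and Cd3g stayed at 3 counts or fewer. The part of these markers in the member values was not tested, and in bulk RNA fewer cells of a type and less RNA per cell cannot be told apart.

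To set ATP against adenosine receptors, counts were divided by the length of the longest coding transcript and compared within each library, which does not depend on scaling between libraries. The summed level of P2rx4, P2rx7 and P2ry2, the receptors that ATP activates, was divided by that of Adora2a and Adora2b. The ratio was 70.4, 79.4 and 75.3 in WT PBS and 81.3, 87.3 and 102 in KO PBS. With LPS it was 3.20, 3.49 and 3.73 in WT and 1.84, 1.97 and 1.90 in KO-labelled cells. All LPS libraries were far below all PBS libraries, and the KO-labelled LPS libraries were below the WT LPS libraries. On the log2 scale the mean was 6.23 ± 0.09 (SD, n = 3) in WT PBS, 1.79 ± 0.11 in WT LPS, 6.49 ± 0.17 in KO PBS and 0.93 ± 0.05 in KO LPS. The levels rest on the length used: by the shortest coding transcripts the mean ratio was 9.40 ± 0.71 in WT LPS and 4.96 ± 0.17 in KO LPS, and by the union of all exons 1.73 ± 0.11 and 0.935 ± 0.031. The differences between groups on the log2 scale moved by less than the spread between libraries with these lengths. The ratio is a description of these members, with no test.

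**Figure D4:**
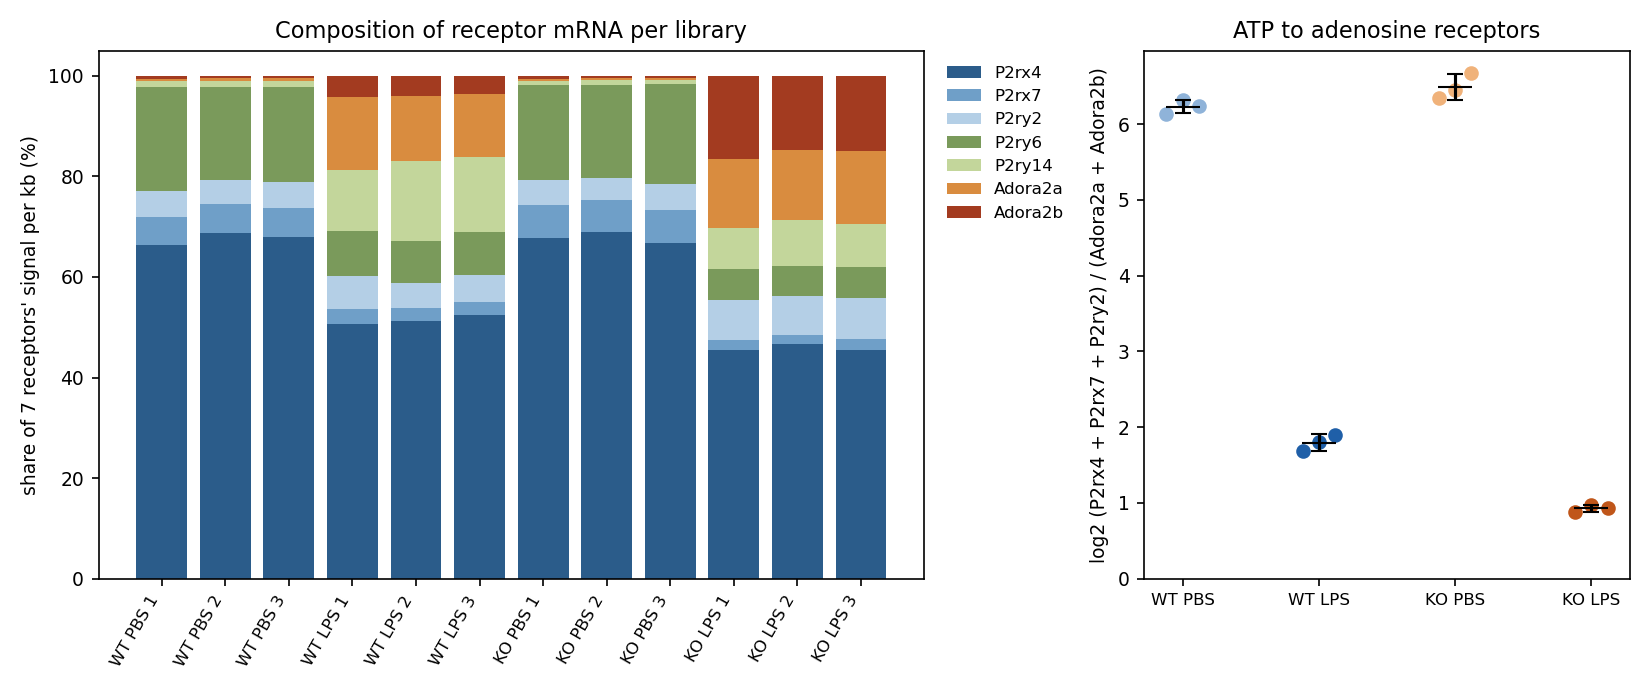
Left, share of each of 7 receptors in their summed counts per kb (%) in every library. Right, within-library log2 ratio of P2rx4, P2rx7 and P2ry2 to Adora2a and Adora2b, with points for libraries, a dash for the mean and bars for the SD. Adenosine receptors make up about 1% with PBS, 16.2% to 18.8% with LPS in WT and 28.6% to 30.2% with LPS in KO-labelled cells.

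Of the summed level of all 7 receptors, the adenosine receptors took 1.05% ± 0.05 in WT PBS, 17.3% ± 1.35 in WT LPS, 0.885% ± 0.107 in KO PBS and 29.4% ± 0.81 in KO LPS. By the shortest transcripts the adenosine share was 8.24% ± 0.68 in WT LPS and 15.1% ± 0.47 in KO LPS, and by the union of exons 30.1% ± 1.51 and 46.4% ± 0.87. By the longest transcripts P2rx4 took 67.7% ± 1.22 in WT PBS, 51.5% ± 0.90 in WT LPS, 67.8% ± 1.12 in KO PBS and 45.8% ± 0.71 in KO LPS. P2ry14 went from 1.12% ± 0.02 to 14.3% ± 2.07 in WT and from 0.906% ± 0.041 to 8.74% ± 0.45 in KO-labelled cells. The 2 adenosine receptors were about even with PBS (log2 ratio of Adora2a to Adora2b 0.09 ± 0.21 in WT and -0.08 ± 0.37 in KO-labelled cells). With LPS Adora2a led in WT (1.74 ± 0.05), while the receptors were close in KO-labelled cells (-0.14 ± 0.11). The log2 ratio of Entpd1 to Adora2a was 4.13 ± 0.04 in WT PBS, -2.27 ± 0.02 in WT LPS, 4.73 ± 0.08 in KO PBS and -2.65 ± 0.02 in KO LPS. For Entpd1 to Adora2b it was 4.21 ± 0.18, -0.53 ± 0.03, 4.65 ± 0.31 and -2.79 ± 0.12. The hydrolase thus exceeded each adenosine receptor with PBS and was below Adora2a with LPS in every library. Against Adora2b in WT LPS the order depends on the length used, with a log2 ratio of 0.28 ± 0.03 by the shortest coding transcripts and -0.18 ± 0.03 by median lengths. P2rx4 carries most of the ATP side, and without it the genotype difference of the log2 ratio with LPS went from -0.87 to -0.49.

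Per kilobase of the longest coding transcript (RPKM on the scaled library size), the order in WT PBS was P2rx4 (184 ± 3.45), P2ry6 (52.9 ± 3.14), Entpd1 (25.6 ± 0.27), P2rx7 (15.7 ± 0.39), P2ry2 (13.6 ± 0.65), P2ry14 (3.05 ± 0.04), Adora2a (1.46 ± 0.03) and Adora2b (1.39 ± 0.17). Only the last pair overlapped between libraries. KO PBS had the same order except that Adora2b (1.15 ± 0.27) and Adora2a (1.07 ± 0.02) changed places within their overlap. In WT LPS the order was P2rx4 (214 ± 9.55), P2ry14 (59.7 ± 10.3), Adora2a (55.3 ± 2.86), P2ry6 (35.9 ± 0.76), P2ry2 (23.2 ± 2.60), Adora2b (16.6 ± 0.84), Entpd1 (11.5 ± 0.61) and P2rx7 (11.4 ± 0.50), in which P2ry14 overlapped Adora2a and Entpd1 overlapped P2rx7. In KO LPS Adora2b stood second (64.4 ± 4.54) after P2rx4 (192 ± 2.34). Adora2a (58.5 ± 1.60), P2ry14 (36.5 ± 1.51), P2ry2 (33.4 ± 1.23), P2ry6 (25.1 ± 0.49), Entpd1 (9.30 ± 0.21) and P2rx7 (8.67 ± 0.68) followed, of which the last pair overlapped. These levels and their order rest on the longest transcripts.

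Of the other receptors of these families, 7 were tested. P2ry1, an ADP receptor, was with PBS at 20.4 ± 1.83 CPM in WT and 29.3 ± 2.10 in KO-labelled cells. With LPS it was down to 0.645 ± 0.210 and 0.841 ± 0.245 CPM, 31.2-fold (-4.97 ± 0.17, adjusted p = 5.08e-14) and 34.6-fold lower (-5.11 ± 0.16, adjusted p = 1.16e-14). Under PBS it was 1.44-fold higher in KO-labelled cells (0.52 ± 0.09, adjusted p = 0.000441). P2ry13, another ADP receptor, rose from 4.31 ± 0.28 to 13.7 ± 1.62 CPM in WT (1.67, adjusted p = 2.74e-09) and from 3.83 ± 0.11 to 8.34 ± 1.61 CPM in KO-labelled cells (1.12, adjusted p = 1.34e-06), and with LPS it was lower in KO-labelled cells (-0.72, adjusted p = 0.000259). P2ry12, the platelet and microglial ADP receptor, fell from 1.75 ± 0.15 to 0.799 ± 0.174 CPM in WT (-1.12, adjusted p = 0.000309) and from 1.27 ± 0.21 to 0.534 ± 0.070 CPM in KO-labelled cells (-1.24, adjusted p = 0.000467).

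Adora3, the third adenosine receptor detected, rose from 1.05 ± 0.11 to 8.72 ± 1.29 CPM in WT (3.04, adjusted p = 2.48e-10) and from 0.657 ± 0.300 to 5.46 ± 0.36 CPM in KO-labelled cells (3.04, adjusted p = 1.96e-09). With LPS it was lower in KO-labelled cells (-0.68, adjusted p = 0.00328), the opposite of Adora2b. Adora1 had at most 1 count in any library. The lysophospholipid-type receptor gene P2ry10b, whose close copy P2ry10 had at most 4 counts and whose reads may be shared with it, was at 18.6 ± 1.62 CPM in WT PBS and 25.9 ± 2.08 in KO PBS (0.48, adjusted p = 0.00173), and at 15.2 ± 2.48 and 23.4 ± 0.50 CPM with LPS (0.62, adjusted p = 0.000235). Its LPS response in WT (-0.29, adjusted p = 0.0181) did not pass without WT PBS replicate 2 or WT LPS replicate 1 (adjusted p = 0.0915 and 0.1), and that in KO-labelled cells was -0.15 (adjusted p = 0.178), but -0.50 under upper-quartile scaling (adjusted p = 0.000226) and -0.95 under library totals (adjusted p = 1.71e-07). P2rx1 had group means of 0.246 to 0.75 CPM and was lower with LPS in KO-labelled cells (-1.59, adjusted p = 0.00124) but not past the test in WT (-0.56, adjusted p = 0.146), where it passed under upper-quartile scaling (-0.86, adjusted p = 0.0288) and library totals (-1.21, adjusted p = 0.00292). P2rx5 had group means of 0.172 to 0.422 CPM and did not pass in WT (-0.73, adjusted p = 0.314) or in KO-labelled cells (-1.17, adjusted p = 0.0863), where it passed under upper-quartile scaling (-1.52, adjusted p = 0.0267), library totals (-1.95, adjusted p = 0.0051) and without WT LPS replicate 3 (adjusted p = 0.0478).

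The wider purinergic list held 77 genes besides the members, of which 61 were tested. With LPS 23 rose and 33 fell in WT, and 25 rose and 30 fell in KO-labelled cells. Between genotypes 7 were higher and 8 lower in KO-labelled cells under PBS, and 16 and 16 with LPS, and the interaction passed for 7 and 8. These shares can be read against the percentages of all genes given with the members. Of 3 ectonucleotidases tested of 10 listed, Entpd1 and Enpp1 fell and Acpp rose in both genotypes. Nt5e, which makes adenosine from AMP, had 0 to 5 counts in every library and was too low to test. Acpp, an acid phosphatase that can act on AMP, went from 5.32 ± 0.56 to 19.9 ± 0.90 CPM in WT and from 5.48 ± 0.78 to 29.3 ± 1.08 in KO-labelled cells, and its interaction passed (0.51, adjusted p = 0.0198) except under library totals (adjusted p = 0.0805). Enpp1, which cleaves ATP to AMP and pyrophosphate, went from 61.7 ± 1.71 to 24.6 ± 2.73 CPM in WT and from 83.0 ± 1.94 to 23.6 ± 4.03 in KO-labelled cells, and its interaction passed as well (-0.49, adjusted p = 0.0202). Among 5 intracellular NTPDases 4 fell in each genotype and none rose. Of 10 tested genes of adenosine uptake and metabolism, 3 rose and 6 fell in WT and 4 rose and 5 fell in KO-labelled cells.

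The genes with the largest LPS responses on this list were Il1b, the cytokine released after P2X7 and inflammasome activation, Calhm6, a channel gene of a family known for ATP release, Pde4b, a cAMP phosphodiesterase, Pnp2, a purine nucleoside phosphorylase with a close copy (Pnp) that may share its reads, and Slc28a2, a nucleoside transporter. Il1b went from 0.717 ± 0.125 to 2299 ± 125 CPM in WT (11.63 ± 0.44, adjusted p = 1.79e-09) and from 1.44 ± 1.55 to 8552 ± 310 CPM in KO-labelled cells (12.54 ± 0.43, adjusted p = 6.64e-10). Calhm6 went from 1.60 ± 0.12 to 360 ± 42.0 CPM in WT (7.81, adjusted p = 3.14e-18) and from 1.11 ± 0.24 to 206 ± 8.37 CPM in KO-labelled cells (7.53, adjusted p = 4.79e-18). Both genes were thus low with PBS, though above the floor on average. Pde4b, which breaks down the cAMP that A2 receptors raise, went from 2.42 ± 0.08 to 188 ± 1.72 CPM in WT (6.27 ± 0.09, adjusted p = 1.55e-18) and from 2.11 ± 0.37 to 329 ± 13.7 CPM in KO-labelled cells (7.28 ± 0.09, adjusted p = 3.46e-19). Pnp2 reached 173 ± 11.7 CPM in WT from 2.52 ± 0.88 CPM (6.10, adjusted p = 1.8e-14), and Slc28a2 reached 1682 ± 44.1 CPM in KO-labelled cells from 27.9 ± 1.04 CPM (5.91, adjusted p = 5.2e-19).

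Between genotypes with LPS, the list genes that differed most among those with at least 5 CPM in the higher group were Il1b (1.89 ± 0.25, adjusted p = 0.000256) and the inflammasome sensor Nlrp3 (1.08 ± 0.09, adjusted p = 1.14e-07), both higher in KO-labelled cells, and Entpd4b (-1.25 ± 0.18, adjusted p = 8.35e-05) and the calcium release channel Itpr3 (-1.0 ± 0.26, adjusted p = 0.00748), both lower. Adcy3, an adenylate cyclase below that level at 4.82 ± 1.40 CPM in WT LPS and 1.52 ± 0.25 in KO LPS, differed more than the last 3 (-1.66, adjusted p = 1.95e-05). Nlrp3 was at 378 ± 55.2 CPM in WT LPS and 802 ± 54.7 in KO LPS. Entpd4b, an intracellular NTPDase, shares reads with its near copy Entpd4 and is uncertain. Under PBS they were Adcy3 (-0.90 ± 0.13, adjusted p = 0.000114), Itpr3 (-0.74 ± 0.19, adjusted p = 0.0121), Entpd4b (-0.61 ± 0.13, adjusted p = 0.00495) and the protein kinase A subunit Prkar2b (0.66 ± 0.08, adjusted p = 1.6e-05). The Itpr3 call under PBS ended without WT PBS replicate 1 or KO PBS replicate 1 (adjusted p = 0.0521 and 0.0613). The largest interactions were Pde4b (1.008 ± 0.140, adjusted p = 0.000143), the phosphodiesterase Pde3b (-0.96 ± 0.20, adjusted p = 0.00352), Nlrp3 (0.95 ± 0.13, adjusted p = 0.000177) and the connexin Gja1 (0.85 ± 0.20, adjusted p = 0.00853). None of these reached the Adora2b interaction of 2.23.

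Finally, the genes whose pattern was closest to each member over the 12 libraries were sought among 8722 genes that averaged 5 CPM or more, by the root-mean-square difference of centred log2 CPM. For Adora2b they were Flrt3 (0.312) and Phlda1 (0.347), more distant than for any other member. For Adora2a they were the nucleoside transporter Slc28a2 (0.145) and Igtp (0.15), for P2ry14 Aldh1b1 (0.151) and Tle3 (0.226), and for P2ry2 Ppp1r15a (0.084) and Plk2 (0.096). For P2rx7 they were L3mbtl2 (0.073) and R3hdm4 (0.074), for P2ry6 Tmem147 (0.064) and Gpx4 (0.075), for Entpd1 Slc7a6 (0.064) and Lipa (0.071), and for P2rx4 F7 (0.032) and Rpl8 (0.052). Among the members themselves the closest pair was P2rx7 and P2ry6 (0.110), and Adora2a and Entpd1 were the farthest apart (3.43). The patterns were not scaled to equal spread, so all these distances also depend on how strongly a gene changes.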

How the data were processed

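RNA was sequenced as 50-base single-end reads on a BGISEQ-500 from 12 libraries. The authors deposited, for each gene and library, expected counts, which are not scaled between libraries. The submitters' processing notes name Bowtie2, RSEM 1.3.1 and GRCm38.p6, whereas the paper's methods name STAR and HTSeq, and the role of each tool is not given in the sources used here. Decimals arise where reads are shared between genes. Expected counts were rounded. In R 4.3.3, edgeR 4.0.16 tested 12065 of 16920 genes (filterByExpr, TMM, 1 robust quasi-likelihood fit to all 12 libraries, two-sided, Benjamini-Hochberg over all genes tested, threshold 0.05). The pipeline was tested on simulated counts in which few genes changed. That test does not cover the shift in composition with LPS. Lengths were the longest protein-coding GENCODE vM21 transcript, chosen after seeing the files. Members and lists were chosen with earlier results of these data known. Beside the members, the genes named were, per contrast, the 4 list genes with the largest change among those past the threshold with at least 5 CPM in the higher group, every other receptor tested, and the 2 genes closest in pattern to each member. Camkk2, Enpp1, Acpp, Adcy3 with LPS and the single markers were named after their values were seen. Alternatives were RLE, upper-quartile and library-total scaling, no filter, DESeq2 1.42.0, a fit restricted to the 2 groups of a comparison, a block for the replicate number, omission of each library in turn, and for the ratio a mean of logs, 5 nucleotide receptors, other lengths and omission of P2rx4. Raw reads were not analysed here.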

Additional observations from a re-analysis of the deposited data

Results flagged for a closer look

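The LPS response of 6 of the 8 members differed between WT and KO-labelled cells by the test of the difference itself (the edgeR interaction term). Of all genes tested, 9.78% had a more positive and 8.24% a more negative response in KO-labelled cells. P2rx4 and P2ry14 did not pass. On the log2 scale, as KO-labelled minus WT, the difference was 2.23 for Adora2b, 0.70 for P2ry2 and 0.54 for Adora2a, and -0.46 for P2rx7, -0.44 for Entpd1 and -0.37 for P2ry6. For Adora2a, KO-labelled cells were lower under PBS (-0.46), while with LPS the genotypes overlapped. With LPS the Adora2b libraries ran from 28.8 to 31.5 CPM in WT and from 113 to 128 CPM in KO-labelled cells.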

How the results depend on the processing

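Of 752 values of the members under the alternatives, 719 kept their direction and their side of the threshold, 14 lost a call, 14 gained one and 5 turned. P2rx4 turned under upper-quartile scaling (-0.091 in WT, -0.18 in KO-labelled cells) and library totals (-0.44 and -0.63), and its call in KO-labelled cells was lost with no filter (adjusted p = 0.0604), all for LPS against PBS. Adora2a for KO against WT with LPS, not past the test, went to -0.0078 under library totals. For KO against WT under PBS, the 2 members called became 4 under upper-quartile scaling, 6 in a fit to the libraries compared and 1 to 6 when a library was left out, where the lowest came without any of WT PBS replicates 1, 2 and 3 or KO PBS replicates 1 and 2 and the highest without WT LPS replicate 1. In the fit to the libraries compared, all genes called for this contrast went from 3053 to 4624 (1991 without KO PBS replicate 1), and purinergic list genes from 15 to 25, or 10 to 22 when a library was left out. The cause of these shifts was not tested. The alternatives for the list were added after seeing the data. The log2 ratio of ATP to adenosine receptors was -4.43 for LPS against PBS in WT (-4.24 as a mean of logs, -4.30 with 5 nucleotide receptors), -5.56 in KO-labelled cells (-5.24 without P2rx4), and -0.87 for KO against WT with LPS (-1.03 as a mean of logs, -0.996 with 5 nucleotide receptors, -0.49 without P2rx4). Leaving out a library gave -4.49 to -4.38, -5.64 to -5.47 and -0.92 to -0.81. Libraries with the same replicate number in different groups had deviations that correlated by -0.076 to 0.127. Libraries with unlike numbers were not compared, so these values cannot tell whether the replicate numbers pair libraries. With the replicate block 2 members were again called for KO against WT under PBS and all 40 member calls were the same. Depth limits the PBS values of both A2 receptors, which rest on 44 to 108 reads.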
